A study of Mus musculus with 3 samples.

Results

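The fragments described here come from the glycine tRNAs with the anticodons CCC and TCC (tRNA-Gly-CCC and tRNA-Gly-TCC, here also Gly-CCC and Gly-TCC). They were taken as all tRNA genes carrying these anticodons in their names, which gave 15 of the 446 tRNA genes in the count table, 7 for Gly-CCC and 8 for Gly-TCC. The study sequenced small RNA of the mouse epididymis in 1 wild type and 2 Alkbh3-/- libraries, here called knockout 1 and knockout 2 after their label numbers. Alkbh3 encodes a demethylase that removes methyl groups from adenosine and cytidine in nucleic acids, tRNA among them, and the series set out to compare epididymal small RNA between the genotypes. Per the labels' protocols, RNA of 15 to 50 nt was cut from a gel loaded with 100 µg of total RNA. The labels mark the wild type library B6WT, where B6 is the usual short name of the C57BL/6 strain, and the knockout libraries 215KO and 217KO, with no strain. The sources used here do not give the allele, age or number of animals behind each library, so the p-values reflect only how far these libraries spread, which may be technical. The wild type has no replicate, and no exact test of 1 library against 2 can give a p below 0.333. Neither Alkbh3 nor markers of the epididymis are among the features analysed here, so the genotype and tissue labels were not checked.

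tRNAs carry amino acids to the ribosome and read codons through the anticodon loop. The CCC anticodon reads the glycine codon GGG, and TCC reads GGA and, by wobble, GGG. Endonucleases such as angiogenin can cut mature tRNAs in the anticodon loop, which leaves a 5′ and a 3′ fragment. Fragments of the 5′ part of glycine and glutamate tRNAs are abundant in sperm and in the epididymis, where sperm mature after leaving the testis. Methylated bases in tRNA can affect both cleavage and the reading of a fragment by reverse transcriptase.

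In the names, the number after the anticodon marks the isodecoder, a set of gene copies with the same mature sequence, and the last number marks the copy. Gly-CCC comprised 5 isodecoders and Gly-TCC 2. The deposited tables list read lengths and counts but no read sequences. Genomic sequence was read for the members that lie in a GENCODE transcript of mm10, which gave the whole of 1 gene, tRNA-Gly-CCC-1-2, and the first 17 bases of tRNA-Gly-TCC-1-2. These stretches are shown because they were the ones that could be read. They compare the 5′ ends of Gly-CCC-1, a low-level Gly-CCC isodecoder, and Gly-TCC-1, which held most Gly-TCC reads. Capitals mark the bases at which the genes differ.
tRNA-Gly-CCC-1-2, bases 1 to 17: gcgCCgCtggtGtagtg
tRNA-Gly-TCC-1-2, bases 1 to 17: gcgTTgGtggtAtagtg
The first lies at chr17:25875088-25875104 on the plus strand and the second at chr1:171064754-171064770 on the minus strand (mm10). Of the 17 bases 13 were identical, and the substitutions, with the Gly-CCC base first and positions counted from 1 at the 5′ end, were C4T, C5T, C7G and G12A. The anticodon arm of tRNA-Gly-CCC-1-2, at chr17:25875113-25875129 on the plus strand, shows where such a cut would fall, and capitals mark the anticodon.
tRNA-Gly-CCC-1-2, bases 26 to 42: caagattCCCattcttg
The anticodon takes bases 33 to 35, inside a loop of 7 bases (31 to 37) that is closed by 5 base pairs.

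Of the 15 genes, 10 lie in clusters on chromosomes 3 and 1. Gly-CCC-2, Gly-CCC-3 and Gly-CCC-5 share a stretch of chromosome 3 with tRNA-Gly-TCC-1-6, and tRNA-Gly-CCC-5-1 is at chr3:96311254-96311324 on the plus strand. Of the Gly-TCC-1 copies, tRNA-Gly-TCC-1-1 to tRNA-Gly-TCC-1-5 lie near each other on chromosome 1, and tRNA-Gly-TCC-2-1 is on chromosome X at chrX:41225880-41225951. Annotation placed 4 of the 15 inside a GENCODE gene, among them tRNA-Gly-CCC-1-2 in the 5′ UTR of Mettl26 and tRNA-Gly-TCC-1-2 partly in an exon of Fcgr3. RefSeq held a tRNA gene at the same position for 13 of the 15, and tRNA-Gly-CCC-5-1 and tRNA-Gly-TCC-2-1 were the members without one. Gly-CCC genes were 71 bases long and Gly-TCC genes 72, so levels of members per gene are also close to levels per length.

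Levels are given in RPM, reads scaled to the library total, with the library taken as all reads in 5 RNA classes, 15107055 (wild type), 15411457 (knockout 1) and 21169908 (knockout 2). All 15 members had reads and averaged at least 10 RPM. Gly-CCC was among the most abundant tRNAs of each library and Gly-TCC was far lower. Gly-CCC gave 19754 RPM for the wild type and 12647 and 13115 for knockouts 1 and 2, the 3rd level of 50 anticodons with reads in each library. Gly-TCC gave 126.6, 76.7 and 136.9 RPM, at ranks 19, 20 and 16. The Gly-CCC sum was thus 156, 165 and 95.8 times the Gly-TCC sum in the same order.

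Nearly all Gly-CCC reads were assigned to 1 gene. tRNA-Gly-CCC-5-1 held 97.7% of them in the wild type and 96.8% and 95.8% in knockouts 1 and 2. Its level was 19291 RPM in the wild type against 12240 and 12563 RPM in the knockouts, a mean of 12401 ± 229 (SD, n = 2). Gly-CCC-1, summed over its 2 copies, gave 250.3, 249.5 and 379.0 RPM. Knockout 2 stood above the other libraries there, while knockout 1 was level with the wild type in the gene table. Gly-CCC-2 (2 copies) gave 90.0, 72.3 and 78.2 RPM, Gly-CCC-3 gave 71.5, 50.4 and 57.0 RPM, and Gly-CCC-4 gave 51.2, 35.4 and 38.0 RPM. For each of these the wild type was the highest library. Gly-TCC-1, summed over 7 copies, gave 109.4, 64.3 and 117.6 RPM, and Gly-TCC-2 gave 17.2, 12.4 and 19.3 RPM. In both Gly-TCC isodecoders the wild type lay between the knockouts. The order of isodecoder sums from Gly-CCC-5 and Gly-CCC-1 down to Gly-CCC-3, Gly-CCC-4 and Gly-TCC-2 was the same in the 3 libraries, but Gly-TCC-1 and Gly-CCC-2 changed places in knockout 1. Over the 3 libraries the range of Gly-TCC-1 overlapped those of Gly-CCC-2 and Gly-CCC-3, and the ranges of Gly-CCC-3 and Gly-CCC-4 overlapped.

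**Figure D1:**
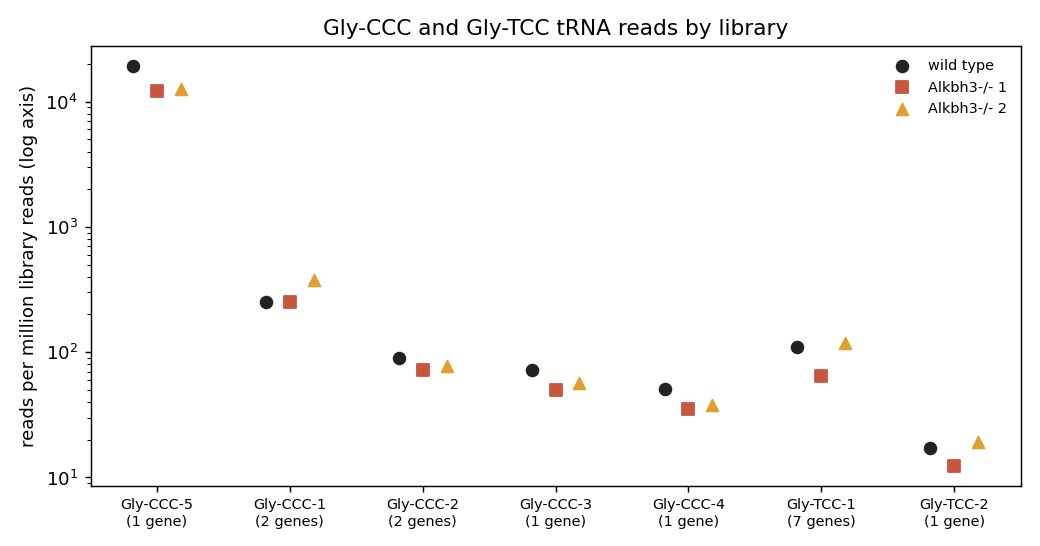
Level in RPM (log axis) of each Gly-CCC and Gly-TCC isodecoder, summed over its gene copies, with 1 point per library. Gly-CCC-5 sits near 19291 RPM in the wild type and near 12401 in the knockouts, the other isodecoders lie at 379.0 RPM or lower, and only for Gly-CCC-1 and both Gly-TCC isodecoders is knockout 2 the highest library.

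The first comparison set the anticodon sums of the knockouts against the wild type. Neither sum passed the threshold, an adjusted p of 0.05 in edgeR's quasi-likelihood test with Benjamini-Hochberg adjustment. Gly-CCC was 1.53-fold lower in the knockouts, with a log2 fold change of -0.62 (SE 0.23, adjusted p = 0.0661). Both knockout libraries lay below the wild type. For Gly-TCC the log2 difference was -0.24 (SE 0.44, adjusted p = 0.704), with knockout 1 below and knockout 2 above the wild type. Among all 45 anticodons tested, 11.1% were called, 22.2% had an unadjusted p under 0.05, and the median log2 fold change was -0.29. Of the 2 sums, Gly-CCC had an unadjusted p under 0.05. DESeq2 called 0 of the 2, beside 6% of 50 anticodons. Without tRNA-Gly-CCC-5-1, an alternative chosen after the data were seen, the Gly-CCC sum differed by 0.052 on the log2 scale (adjusted p = 0.927), and its levels were 463, 408 and 552 RPM. The wild type then lay between the knockouts.

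The Gly-TCC value rested on which knockout was used. Against the wild type, knockout 1 alone gave a log2 difference of -0.72 and knockout 2 alone 0.11. All 8 Gly-TCC genes were below the wild type in knockout 1 and above it in knockout 2, beside 14.7% of all 348 genes tested. By their names 7 of the 8 are copies of 1 isodecoder with the same sequence, so they are not replicates of each other. That the sequences are the same was not checked. Some Gly-TCC reads of the per-library tables described below, chosen after their values were seen, went the other way in knockout 1. First-class reads of 34 nt gave 3.71, 4.93 and 7.09 RPM (log2 fold change 0.70, SE 0.67, adjusted p = 0.696 in edgeR). Second-class reads gave 9.33, 10.7 and 14.7 RPM. The 5 most abundant Gly-TCC lengths were all below the wild type in knockout 1.

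Of the 15 single genes 1 fell and 14 did not pass the test, beside 8.62% of all 348 tRNA genes called lower and 11.8% called in either direction. The gene that fell was tRNA-Gly-CCC-5-1, with counts of 291433, 188629 and 265960 reads in wild type, knockout 1 and knockout 2. Its level was 1.56-fold lower in the knockouts, a log2 fold change of -0.64 (SE 0.11, adjusted p = 3.0e-06), and both knockouts lay below the wild type. The call ended under 4 of 7 alternatives: with TMM factors (adjusted p = 0.0527), with miRNA reads left out of the library size (0.833), with DESeq2 (0.670) and without a dispersion trend (0.185). The reads of other RNA classes moved with this result. The share of tRNA reads in the library was 44.7% (wild type), 36.5% (knockout 1) and 38.1% (knockout 2), and that of miRNA reads was 15.1%, 24.8% and 30.7%. With miRNA reads left out, the log2 fold change of tRNA-Gly-CCC-5-1 was -0.40.

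The other 6 Gly-CCC genes went in different directions, none past the threshold. tRNA-Gly-CCC-1-1 had counts of 1861, 1951 and 4060 reads, which is 123.2, 126.6 and 191.8 RPM (log2 fold change 0.37, SE 0.46, adjusted p = 0.855). Its copy tRNA-Gly-CCC-1-2, the gene whose sequence is shown above, had 1920, 1894 and 3963 reads (0.29, SE 0.46, adjusted p = 0.897). In both copies knockout 2 stood clear of the other libraries. tRNA-Gly-CCC-2-1 gave 46.3, 35.2 and 38.4 RPM, tRNA-Gly-CCC-2-2 43.8, 37.1 and 39.8 RPM. tRNA-Gly-CCC-3-1 and tRNA-Gly-CCC-4-1 had the isodecoder levels given above, with log2 fold changes of -0.41 (SE 0.47) and -0.48 (SE 0.47). Both knockouts lay below the wild type in 5 of the 15 genes, all of them Gly-CCC, beside 48.3% of all genes tested. Both lay above it in 1 gene, tRNA-Gly-CCC-1-1, beside 21.3% of all genes tested.

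The 8 Gly-TCC genes had log2 fold changes of -0.32 to -0.12, and their lowest adjusted p was 0.885. tRNA-Gly-TCC-1-5 held the most reads, 448, 286 and 637, or 29.7, 18.6 and 30.1 RPM. The other 6 Gly-TCC-1 copies were close to each other, at 12.6 to 14.0 RPM in the wild type, 7.01 to 7.98 in knockout 1 and 14.0 to 15.4 in knockout 2. Why tRNA-Gly-TCC-1-5 had more reads than copies named as having the same sequence was not tested. tRNA-Gly-TCC-2-1 gave 17.2, 12.4 and 19.3 RPM. Over the 15 members the median log2 fold change was -0.26, beside -0.17 over all genes tested.

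**Figure D2:**
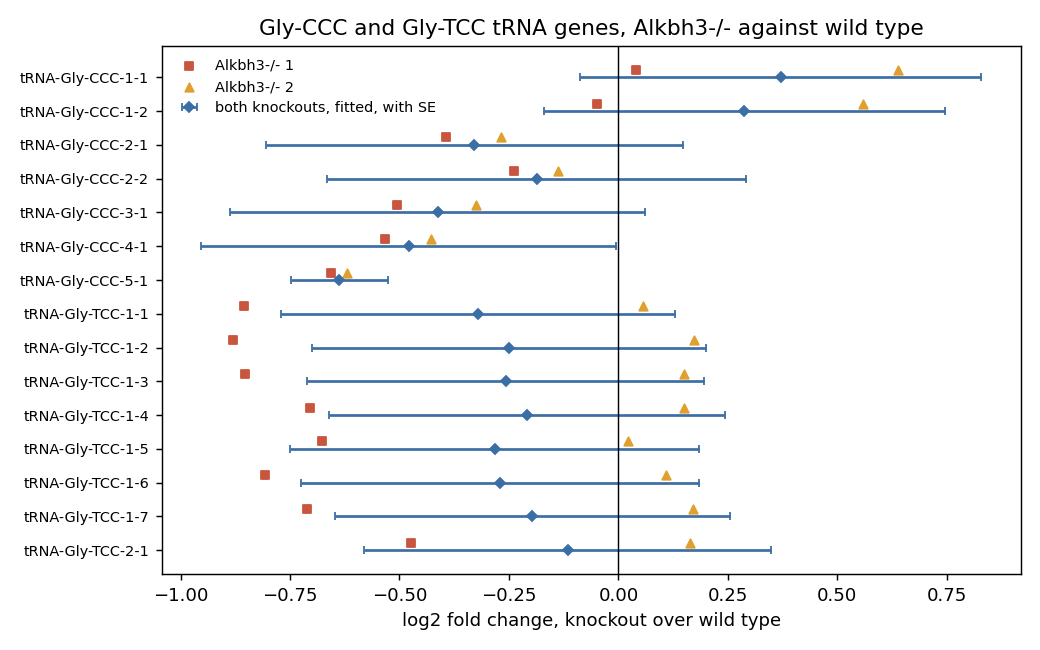
Log2 fold change of each Gly-CCC and Gly-TCC gene against the wild type, for knockout 1 alone (squares), knockout 2 alone (triangles) and both fitted together (diamonds, bars are 1 SE). tRNA-Gly-CCC-5-1 at -0.64 has the smallest error, and the 8 Gly-TCC genes have knockout 1 left of 0 and knockout 2 right of it.

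In level, tRNA-Gly-CCC-5-1 lay close to 10 of the 15 Gly-GCC genes and far above the other Gly-CCC genes. Gly-GCC is the anticodon with most reads in each library. Its level was 9.60 times the Gly-CCC sum in the wild type and 10.1 times in both knockouts. A Gly-GCC-2 gene averaged 18608, 12520 and 12957 RPM, near the 19291, 12240 and 12563 RPM of tRNA-Gly-CCC-5-1. Gly-GCC-4, a single gene, gave 19757, 13229 and 13696 RPM. The 5 genes of Gly-GCC-1, Gly-GCC-5 and Gly-GCC-6 were far lower, at 362.9 to 800.6 RPM in the wild type. Of 15 Gly-GCC genes 10 fell, with log2 fold changes of -0.56 to -0.53, and 5 did not pass. The length profile of Gly-CCC-5, over both read classes described next, differed from that of Gly-GCC-4 in 5.08% of reads on average over the 3 libraries. This was the smallest mean difference to any of 39 isodecoders with at least 1000 reads. In the wild type Gly-GCC-4 differed in 2.63% and Gly-GCC-1 in 6.03%. In knockouts 1 and 2 Gly-GCC-1 was the nearer of these, at 5.19% and 5.62% against 6.04% and 6.57%. The nearest Gly-CCC isodecoder, Gly-CCC-3, differed in 10.9%. The sources used here do not say how the authors assigned reads that match several tRNA genes, so the level of tRNA-Gly-CCC-5-1 is uncertain. Whether its reads are shared with Gly-GCC genes was not tested.

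Read lengths came from a separate deposited table per library, which holds more reads of a gene than the gene table does (489185 against 291433 for tRNA-Gly-CCC-5-1 in the wild type). Levels of these tables are therefore not set beside those above. The gene table held 0.713, 0.663 and 0.659 of the per-library reads of tRNA-Gly-CCC-1-1 in the wild type, knockout 1 and knockout 2. For tRNA-Gly-TCC-1-2 it held 0.750, 0.684 and 0.683, and for tRNA-Gly-CCC-5-1 0.596, 0.594 and 0.594. On per-library counts the log2 fold change was 0.48 for tRNA-Gly-CCC-1-1 and -0.12 for the Gly-TCC sum. Each per-library table divides the reads into 2 classes that carry no description, here called first and second class. First-class Gly-CCC reads were mainly of 31, 30, 32, 29 and 28 nt. Reads of 31 nt gave 21811, 12576 and 12379 RPM and fell 1.75-fold (log2 fold change -0.81, SE 0.24, adjusted p = 0.0479). Both knockouts lay well below the wild type. Among 66 Gly-CCC and Gly-TCC fragments (anticodon, class and length) that passed the filter, of 135 with reads, this was the 1 call, beside 2.16% of all 834 fragments called in either direction and 0.959% called lower. It was kept under 1 of 6 alternatives, TMM factors, where the adjusted p was 0.00519, and the highest adjusted p was 0.680.

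Shorter and longer Gly-CCC reads did not pass the test. Reads of 30 nt gave 7284, 5533 and 6192 RPM (log2 fold change -0.31, adjusted p = 0.675), and reads of 32 nt gave 2531, 1698 and 1767 RPM (-0.55, adjusted p = 0.543). The wild type was the highest library at both lengths. Reads of 29 nt gave 474.5, 465.0 and 514.9 RPM, and reads of 28 nt gave 376.7, 343.4 and 392.8 RPM, with log2 fold changes of 0.046 and -0.033. At these lengths the wild type lay between the knockouts.

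Most 31 nt reads of Gly-CCC belonged to Gly-CCC-5. Summed per isodecoder, a feature chosen after the data were seen, they gave 21632, 12468 and 12262 RPM (log2 fold change -0.81, SE 0.18, adjusted p = 0.00102), and the call ended under 4 of 6 alternatives, with a highest adjusted p of 0.556. They made up 66.8% of the first-class reads of Gly-CCC-5 in the wild type and 60.6% and 57.9% in knockouts 1 and 2. Its 30 nt reads made up 22.2%, 26.5% and 28.7%, so the ratio of 31 to 30 nt reads was 3.01, 2.29 and 2.02. No Gly-CCC-5 read was longer than 39 nt. Gly-CCC-3 and Gly-CCC-4 also had their mode at 31 nt, with 57.4%, 53.4% and 49.8% of first-class reads in Gly-CCC-3 and 65.2%, 54.2% and 51.9% in Gly-CCC-4. In both, the wild type had the largest share of 31 nt reads. The 31 nt level of the knockout mean was 0.572 times the wild type in Gly-CCC-5, 0.582 times in Gly-CCC-4, 0.632 times in Gly-CCC-2 and 0.664 times in Gly-CCC-3. In Gly-GCC it was 0.576 times, with 31 nt shares of 63.8%, 55.5% and 52.7%, so the difference was not particular to Gly-CCC-5. Gly-CCC-2 had 40.8%, 30.9% and 31.8% at 31 nt and a further 7.47%, 13.1% and 9.18% at 50 nt.

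Gly-CCC-1 reads had other lengths. Reads of 31 nt, the mode of the other Gly-CCC isodecoders, made up 0.234%, 0.0390% and 0.205% of its first-class reads, and its most frequent lengths were 34, 33 and 32 nt. Its 34 nt reads gave 74.5, 106.7 and 133.4 RPM, and its 32 nt reads 55.3, 64.0 and 92.0 RPM. Its 33 nt reads gave 37.3, 53.1 and 150.3 RPM. Both knockouts lay above the wild type at these 3 lengths, and the mode was 34 nt in the wild type and knockout 1 and 33 nt in knockout 2. The log2 fold change at 33 nt was 1.45 (SE 0.51, adjusted p = 0.0982), a feature chosen after its values were seen. It passed under 2 of 6 alternatives, with adjusted p from 0.00634 to 0.537. The size rested on knockout 2, since knockout 1 alone gave a log2 difference of 0.51 and knockout 2 alone 2.01. Reads of 35 nt went the other way, at 36.2, 18.9 and 27.1 RPM. The ratio of 33 to 35 nt reads was 1.03 for the wild type, 2.81 for knockout 1 and 5.54 for knockout 2. Reads that start at base 1 and run for 33 to 35 nt would end within the anticodon shown above. The tables give no read positions.

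**Figure D3:**
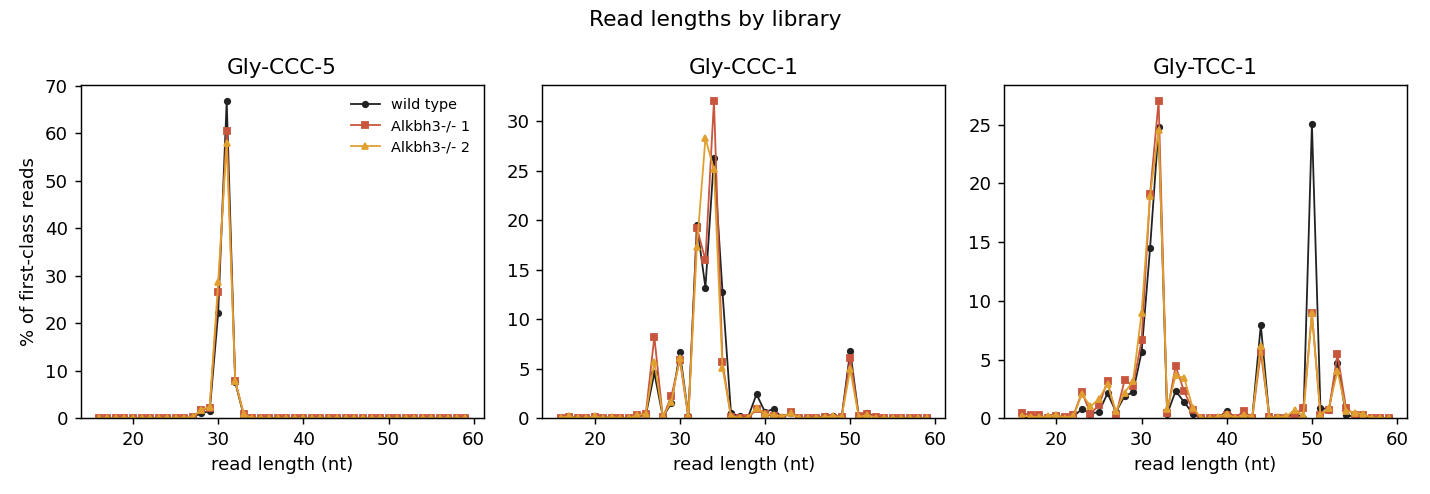
Share of first-class reads (%) at each read length (nt) in Gly-CCC-5, Gly-CCC-1 and Gly-TCC-1, with 1 line per library. Gly-CCC-5 peaks at 31 nt and Gly-CCC-1 at 33 or 34 nt, and Gly-TCC-1 has a peak at 32 nt and another at 50 nt that holds 25.1% of wild type reads and 8.93% and 8.97% of knockout reads.

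Gly-TCC reads spread over more lengths than Gly-CCC reads. Of first-class Gly-TCC reads, 52.7% were of 30 to 36 nt in the wild type and 62.5% and 63.0% in the knockouts. The same shares of first-class Gly-CCC reads were 96.9%, 95.4% and 94.9%. The most abundant Gly-TCC lengths were 32, 31, 50, 30 and 44 nt. Reads of 32 nt gave 42.8, 27.5 and 48.2 RPM (log2 fold change -0.18, adjusted p = 0.935) and reads of 31 nt 24.8, 20.5 and 35.4 RPM (0.18, adjusted p = 0.938). Reads of 30 nt gave 9.40, 6.49 and 16.9 RPM and reads of 44 nt 14.2, 6.03 and 11.1 RPM. At 44 nt the wild type was the highest library, and at 30, 31 and 32 nt it lay between the knockouts.

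The Gly-TCC length with the widest gap between wild type and knockouts among the 5 named was 50 nt, the upper limit of the gel slice. Gly-TCC reads of 50 nt gave 34.3, 7.72 and 14.9 RPM, from 518, 119 and 315 reads. The wild type stood above both knockouts, but the difference did not pass edgeR's test (log2 fold change -1.60, SE 0.60, adjusted p = 0.157). It passed in DESeq2 (adjusted p = 0.0376), 1 of 6 alternatives. Of these reads 508, 113 and 295 belonged to Gly-TCC-1. There the 50 nt reads made up 25.1% of first-class reads in the wild type (95% Wilson interval 23.2 to 27.0%), 8.93% in knockout 1 (7.48 to 10.6%) and 8.97% in knockout 2 (8.04 to 9.99%). The intervals cover counting error only. The per-isodecoder log2 fold change was -1.66 (SE 0.53, adjusted p = 0.0603, chosen after its values were seen), and it passed under 2 of 6 alternatives. Leaving out 1 knockout gave log2 differences of -2.15 and -1.20 for the Gly-TCC reads of 50 nt. In level, first-class reads of 50 nt were not lower in every glycine tRNA. They gave 19.2, 20.2 and 26.2 RPM in Gly-CCC-1 and 3.71, 5.06 and 4.16 RPM in Gly-CCC-3. In Gly-GCC they gave 1725, 5359 and 5043 RPM. Both knockouts lay above the wild type in each of these. As a share of first-class reads they were lower in the knockouts in Gly-CCC-1 (6.79%, 6.07% and 4.94%) and higher in Gly-CCC-3 (3.25%, 6.44% and 4.61%).

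Second-class Gly-CCC reads came almost only from Gly-CCC-1, with 1021 of 1022, 666 of 671 and 930 of 932. All Gly-CCC-1 reads numbered 5294, 5793 and 12166, in the order wild type, knockout 1 and knockout 2. The second class thus made up 19.3% (95% Wilson interval 18.2 to 20.4%), 11.5% (10.7 to 12.3%) and 7.64% (7.19 to 8.13%). The intervals cover counting error only. Those of the 3 libraries did not overlap, the knockouts' own intervals included, and the wild type had the largest share. In RPM, second-class reads gave 67.6, 43.2 and 43.9, while first-class reads gave 282.8, 332.7 and 530.8. The smaller share in the knockouts thus went with both a lower second-class level and a higher first-class level. Second-class reads of Gly-CCC-1 were mainly of 34, 35 and 37 nt, with 25.7%, 28.1% and 38.2% at 34 nt, 20.96%, 23.7% and 14.5% at 35 nt, and 14.6%, 15.9% and 11.2% at 37 nt.

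Gly-TCC-1 had second-class reads too, and there the wild type share was the smallest. It was 6.51% (141 of 2167 reads, interval 5.54 to 7.62%) in the wild type, 11.4% (9.87 to 13.2%) in knockout 1 and 8.56% (7.69 to 9.52%) in knockout 2. Their mode was 30 nt, at 46.8%, 41.7% and 48.4%. Gly-CCC-5 had 0 second-class reads among 489185, 317324 and 447980, which allows a share of up to 0.000613%, 0.000945% and 0.000670%. Some Gly-GCC isodecoders were alike in this. Gly-GCC-3 had 1, 0 and 2 second-class reads of 427979, 290398 and 415781, and Gly-GCC-5 and Gly-GCC-6 had 0 in each library. Others had more, with 230, 173 and 225 in Gly-GCC-2, 32, 41 and 28 in Gly-GCC-4, and 11, 12 and 17 in Gly-GCC-1. Over all Gly-GCC genes the share was 0.00584%, 0.00708% and 0.00597%. The other Gly-CCC isodecoders and Gly-TCC-2 had at most 3 second-class reads in any library.

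**Figure D4:**
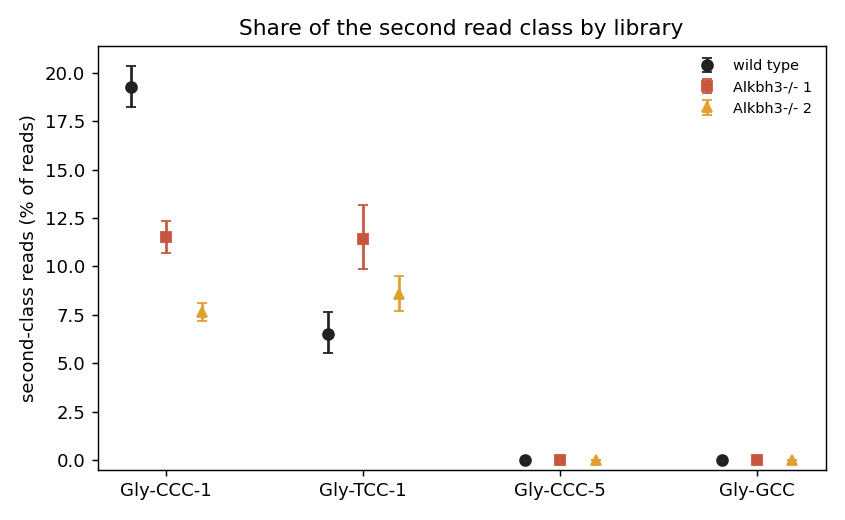
Second-class reads as a share of all reads (%) in each library, with 95% Wilson intervals as bars. Gly-CCC-1 lies at 19.3% in the wild type and at 11.5% and 7.64% in the knockouts, Gly-TCC-1 lies at 6.51%, 11.4% and 8.56%, and Gly-CCC-5 and Gly-GCC lie at or near 0.

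Set among other tRNAs, Gly-CCC had neighbours with like values, while those of Gly-TCC lay further off. Over the log2 differences of knockout 1 and knockout 2 to the wild type, the 3 of 44 anticodons nearest to Gly-CCC (-0.64 and -0.59) were Arg-CCG, Gln-TTG and Gly-GCC, at distances of 0.029, 0.072 and 0.11. Nearest to Gly-TCC (-0.72 and 0.11) were Gly-ACC, Met-CAT and Val-AAC, at 0.24, 0.25 and 0.30. Unlike Gly-TCC, these 3 lay below the wild type in both knockouts. Their values were -0.71 and -0.13, -0.56 and -0.070, and -0.51 and -0.098. Of the 4 glycine anticodons, Gly-GCC fell (log2 fold change -0.54, SE 0.077, adjusted p = 4.9e-07) and 3 did not pass, with a list median of -0.46. Of 10 anticodons listed as abundant fragment sources in epididymis and sperm, Glu-CTC rose (0.86, SE 0.14, adjusted p = 7.4e-06), Gly-GCC fell and 8 did not pass, with a median of -0.27. Over all 45 anticodons 11.1% were called and the median was -0.29. Glu-CTC, a glutamate tRNA whose 5′ fragment is abundant in sperm, gave 30918, 54516 and 57504 RPM.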

How the data were processed

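Per the labels' protocols, libraries were made with a small RNA kit from gel-cut RNA. The authors deposited raw counts: reads per RNA class, reads per tRNA gene, and, per library, reads of a tRNA gene in 2 classes with a list of lengths and their counts (unit recorded as other). Per the submitters' processing notes the build was mm10 and cutadapt was used. The sources used here do not give the aligner, the counter or the treatment of multiply matching reads, and the gene table holds 59.4%, 59.4% and 59.1% of the tRNA reads. Knockout was compared with wild type on counts over all features by edgeR 4.0.16 in R 4.3.3 (glmQLFit and glmQLFTest, filterByExpr, two-sided, library size the 5-class total, no composition factor, 1 residual degree of freedom), with the SE as the log2 fold change over the root of F. The lone wild type is assumed to vary like the knockouts. Shares were not tested and carry 95% Wilson intervals, and the limit of a count of 0 is 3 counts. Counts of members differed between the knockouts by a chi-square of 47.1 for each degree of freedom, so they are not 1 library entered again. The same value was 31.3 between the wild type and knockout 1 and 161 between the wild type and knockout 2. By this measure knockout 1 lay nearer to the wild type than to knockout 2. Members and lists were chosen with earlier results of these data known. Every member is accounted for. Named fragments are the 5 most abundant lengths per anticodon and each that passed, with others added after their values were seen. Alternatives were DESeq2 1.42.0, other library sizes, TMM, no filter, no dispersion trend, the per-library tables, and each knockout left out.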

Additional observations from a re-analysis of the deposited data

How the results depend on the processing

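The scaling moved the median log2 fold change of all anticodons from -0.29 to -0.18 (TMM), -0.031 (column sums), 0.0076 (DESeq2) and -0.048 (library size without miRNA reads). Relative to that median, Gly-CCC stayed at -0.33 to -0.31 and Gly-TCC at 0.037 to 0.055 under these settings. The Gly-CCC sum passed with column sums (log2 fold change -0.35, adjusted p = 0.0418) and turned to 0.052 without tRNA-Gly-CCC-5-1. Leaving out 1 knockout gave -0.64 to -0.59 for Gly-CCC and -0.72 to 0.11 for Gly-TCC. The Gly-TCC sum turned to 0.014 with column sums, 0.0077 without miRNA reads and 0.045 in DESeq2. The count of single genes called went from 1 to 0 with TMM, without miRNA reads, in DESeq2 and without a trend. That of fragments went from 1 to 0 with column sums, without miRNA reads, without the filter and without a trend. DESeq2 also called 1 fragment, but another, Gly-TCC reads of 50 nt (adjusted p = 0.0376). Gly-CCC reads of 31 nt did not pass there (adjusted p = 0.414). Column sums also turned tRNA-Gly-CCC-2-2 to 0.079, tRNA-Gly-TCC-1-2 to 0.0079, tRNA-Gly-TCC-1-3 to 0.0012, tRNA-Gly-TCC-1-4 to 0.052, tRNA-Gly-TCC-1-7 to 0.063 and tRNA-Gly-TCC-2-1 to 0.15. Leaving out miRNA reads turned tRNA-Gly-CCC-2-2 to 0.052, tRNA-Gly-TCC-1-2 to 0.0023, tRNA-Gly-TCC-1-4 to 0.042, tRNA-Gly-TCC-1-7 to 0.054 and tRNA-Gly-TCC-2-1 to 0.13, and DESeq2 turned tRNA-Gly-TCC-2-1 to 0.059. Gly-CCC reads of 28 nt turned to 0.085 (TMM), 0.23 (column sums), 0.21 (without miRNA reads) and 0.10 (DESeq2). Gly-TCC reads of 32 nt turned to 0.084 (column sums) and 0.077 (without miRNA reads), and for Gly-TCC-1 alone to 0.12 and 0.11. None of these turned values was called. The cause was not tested. No paired analysis was possible because the wild type is 1 library without a number.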

Other observations

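Further Gly-CCC and Gly-TCC fragments, chosen after their values were seen, were as follows. Gly-CCC-1 first-class reads of 27 nt gave 13.0, 27.4 and 30.4 RPM in the wild type, knockout 1 and knockout 2, with both knockouts above the wild type (log2 fold change 1.15, SE 0.57, adjusted p = 0.344 in edgeR). Gly-CCC-1 second-class reads of 32 nt gave 8.47, 3.44 and 3.92 RPM, with both knockouts below it (-1.20, SE 0.55, adjusted p = 0.291). Gly-TCC-1 second-class reads of 31 nt gave 0.993, 2.34 and 2.79 RPM (1.36, SE 0.68, adjusted p = 0.346). Gly-TCC-1 first-class reads of 53 nt, longer than the gel slice, gave 6.35, 4.48 and 6.28 RPM. None of these passed the threshold.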
